A study of Mus musculus with 2 samples.

Results

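Of the 1483 ISL1 peaks analysed in sinoatrial node cells, 47 lay nearest to genes of transcription factor families outside the T-box, forkhead, Iroquois and TALE groups (3.17%, exact Clopper-Pearson 95% interval 2.34 to 4.19). They were chosen by the name of the gene with the nearest transcription start site (TSS), at any distance, over 27 name groups such as Sox, Runx, Gata, Ets and Zfp, leaving out Tcf7l2. The 47 peaks fell to 28 of the 1003 genes that were nearest to any peak. Of them, 30 peaks and 20 genes belonged to 26 named families, and 17 peaks and 8 genes to the broad Zfp group, which collects mouse genes named zinc finger protein. Runx1t1, Pou2af1, Zfp36l1 and Bach2os came in by name and do not encode DNA-binding transcription factors of these families.

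ISL1 is a LIM-homeodomain transcription factor that is needed for the pacemaker cells of the sinoatrial node, where the heartbeat starts. Chromatin bound by it was immunoprecipitated from node cells of newborn ICR mice, aged 1 to 3 days. These cells carried the Hcn4-H2BGFP reporter, a fluorescent histone expressed with the pacemaker channel gene Hcn4, and were sorted for its signal. The series held 1 ISL1 library and 1 input DNA library, and the input was not analysed here. There was no replicate, so intervals below cover counting error only. A peak list holds no expression values, so the labelled cell type could not be checked against markers.

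Transcription factors of the families described here bind DNA through shared domains: the ETS, homeodomain, HMG-box, helix-loop-helix, Runt and zinc finger folds. Genes of such regulators are often controlled from enhancers far outside their coding parts, and many lie in wide stretches of DNA with few other genes. LIM-homeodomain factors recognise short AT-rich sites and often act with partners on such enhancers. A nearest gene is a name for a place and need not be the gene that a bound site controls.

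All positions are in mm9 coordinates as deposited, and each peak is 144 bp from start to end. The peak score is the authors' own number. All scores of the list equalled whole multiples of a step of 1.3682 once these were rounded to 3 significant digits, and the interval given with a score is the exact Poisson 95% interval if 1 step stands for 1 tag. The median of all 1483 peaks was 15.1, with a 75th percentile of 17.8 and a 90th of 23.3. Sequence of mm9 was not used here, so no bases of the peaks are printed.

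The highest member peak lay upstream of Six2, which encodes a homeodomain factor known for keeping kidney progenitors undifferentiated. It had a score of 34.2 (22.1 to 50.5) and lay 135 kb upstream of the TSS at chr17:86222654-86222798. It ranked 23 among all 1483 peaks. A second Six2 peak of score 12.3 (5.63 to 23.4) lay 34.8 kb further out, at chr17:86257500-86257644. The intervals of these neighbours overlap. Both lay between Six2 and Srbd1 in the order of protein-coding genes. None of the other 5 genes of that family was nearest to a peak.

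Zfp608, a zinc finger gene, held the most member peaks. All 7 were intergenic and scored at or above the 75th percentile of the list. The 1 downstream peak had a score of 17.8 at 169 kb, at chr18:54980753-54980897. The 6 upstream peaks scored 28.7 at 268 kb, 17.8 at 388 kb, 23.3 at 417 kb, 21.9 at 501 kb, 32.8 at 558 kb and 21.9 at 559.8 kb. The last pair lay 2.25 kb apart, at chr18:55707282-55707426 and chr18:55709535-55709679. The peaks of 32.8 (21.0 to 48.9) and 28.7 (17.8 to 43.9), with the higher one of Six2, were the 3 member peaks whose interval lay above the list's median, of 47 (6.38%). Over all peaks the share was 7.28%, or 108 of 1483. Zfp608 shared the place of the fifth gene by number of peaks among all 1003 genes, with 7 genes holding 7 peaks or more.

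The Zfp608 peaks were part of a longer row of peaks. Between Zfp608 and Gramd3, the next protein-coding gene on its upstream side, lay 10 peaks over 979.6 kb, from chr18:55418127 to chr18:56397724. The other 4, listed under Gramd3, scored 23.3, 17.8, 15.1 and 12.3, and lay 1045 to 1248 kb upstream of the Zfp608 TSS. On the downstream side a further peak of 10.9, listed under Redrum, lay 496 kb from that TSS. The 530 intergenic peaks with a protein-coding nearest gene and a flanking gene found fell into 340 intervals between protein-coding genes. Of these, 3 held 10 peaks or more. Peaks listed under noncoding genes were left out, so an interval may hold more peaks than counted. Gene order is that of GRCm38.p6 and the intergenic annotation that of mm9, so a gene present in only one of them could change such an interval or a flanking gene.

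**Figure D1:**
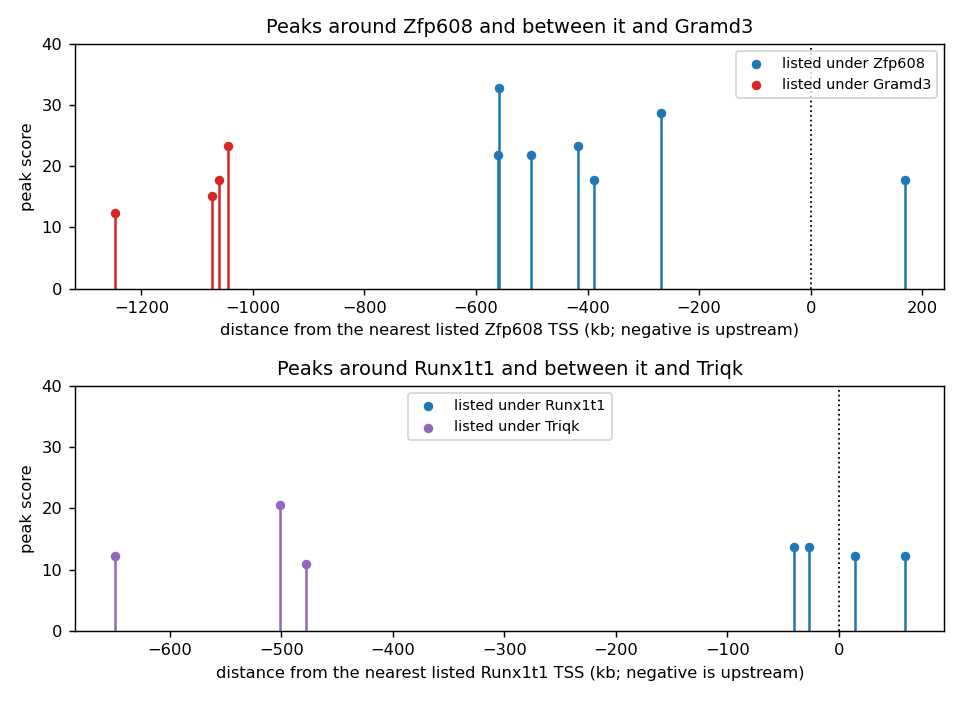
Peak score (vertical axis) against the distance in kb from the nearest listed TSS (horizontal axis, negative is upstream) for Zfp608 (top) and Runx1t1 (bottom, where the peaks are measured from 2 TSSs of the gene), each line 1 peak. Blue peaks are listed under the named gene, red and purple ones under the neighbours Gramd3 and Triqk. The Zfp608 peaks reach 32.8 and those of Runx1t1 stay at 12.3 to 13.7. The peak listed under Redrum, downstream of Zfp608, is not drawn.

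The ETS factors were represented by Etv1 and Ets1. Etv1 is known in the heart for its part in fast-conducting muscle. Its strongest peak, of 23.3 (13.5 to 37.2), lay in intron 8 of 12 at chr12:39570248-39570392, 60.0 kb downstream of the TSS. Another, of 17.8 (9.47 to 30.4), lay in intron 5 at chr12:39547216-39547360. The third was intergenic, with a score of 12.3 at 283 kb downstream. The 3 intervals overlap, so the order of the peaks is not resolved. A further peak of 12.3, listed under the next gene Arl4a, lay 877 kb from the Etv1 TSS. Ets1, a factor of endothelial, lymphoid and neural crest cells, had 1 intergenic peak of 15.1 at 20.1 kb upstream (chr9:32483441-32483585). Ets2 and the other 6 Etv genes were not nearest to a peak.

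Of the 19 Sox genes, which encode HMG-box factors, Sox11 was nearest to a peak. Sox11 is known from neural and heart outflow development. Its 2 peaks were intergenic and far upstream, with 23.3 (13.5 to 37.2) at 195 kb (chr12:28222018-28222162) and 15.1 (7.51 to 26.9) at 444 kb. No other peak lay between them. The focus ratio, the authors' fraction of a peak's tags that fall where a single site would place them, was 0.944 for the nearer one, the highest of the 47 members (median 0.750, against 0.739 over all peaks).

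The helix-loop-helix genes Tcf21 and Tcf12 had 1 peak each. Tcf21, a marker of epicardial and fibroblast lineages, had an intergenic peak of 17.8 at 48.7 kb upstream (chr10:22588549-22588693), on the side of Eya4. Tcf12 encodes a widely expressed E-protein. Its peak of 16.4 was listed 78.6 kb upstream of a TSS but lay in intron 5 of 19 of a longer Tcf12 transcript (chr9:71822397-71822541).

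Runx2, the Runt factor of bone formation, had a peak of 13.7 in intron 4 of 7 (chr17:44846931-44847075), 26.1 kb from the TSS. Runx1t1 encodes a corepressor that was named for a fusion with RUNX1 and is not itself a Runt factor. Its 4 peaks all lay within 100 kb: 2 upstream of 13.7 each at 40.0 and 26.8 kb, and 2 of 12.3 each in intron 1 (14.7 kb) and intron 5 (59.3 kb). They spanned 141 kb at chr4:13630420-13771288 with no peak of another gene among them. All 4 scored below the list's median. With 3 peaks listed under Triqk, of 12.3, 20.5 and 10.9 at 478 to 649.6 kb upstream of Runx1t1, 5 intergenic peaks lay between these genes.

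The POU group had 3 peaks, of which 2 are described here. The Pou5f2 peak, of 17.8 at 131 kb upstream, lay inside another gene, in intron 6 of 10 of Fam172a. Pou2af1 encodes a B-cell coactivator without a POU domain. Its peak of 16.4 was the 1 member peak in a 3′ UTR, in exon 5 of 5 (chr9:51047141-51047285).

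Bach2, a repressor of the bZIP class known from B cells, was nearest to 3 peaks, and its antisense neighbour Bach2os to 1. The intergenic ones scored 17.8 at 113 kb and 13.7 at 79.6 kb upstream. One of 13.7 lay in intron 1 of 4 of Bach2, 65.7 kb downstream. The peak listed under Bach2os, of 15.1, also lay inside Bach2, in intron 2 (chr4:32618226-32618370). The 4 peaks thus belong to 1 locus, and each had its nearest neighbour 33.9 to 48.2 kb away.

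Gata3 was the 1 gene of the Gata group with a listed peak: 17.8 (9.47 to 30.4) at 274 kb downstream, on the side of Celf2 (chr2:9526037-9526181). The group has 9 coding genes by name, a count that takes in Gatad genes, which share only the start of the name. GATA3 is known from T cells and sympathetic neurons. Zfpm1, also called Fog1, encodes a cofactor of GATA proteins. It had a peak of 13.7 (6.56 to 25.2) at 1.71 kb upstream (chr8:124804256-124804400), one of the closest member peaks to a TSS. No peak was listed under Gata4, Gata5, Gata6 or Zfpm2.

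The remaining named families gave 1 gene each. Tshz2, a teashirt zinc finger gene, had 2 peaks in its intron 1, of 19.2 (10.5 to 32.1) at 32.9 kb (chr2:169491947-169492091) and 12.3 at 118 kb. Ebf2, a helix-loop-helix factor of neurons and fat cells, had 1 of 13.7 in intron 7 of 16 (chr14:67890808-67890952). A second peak in the body of Ebf2, of 10.9 in intron 9, was listed under 4930438E09Rik. Nfib, a nuclear factor I gene known from lung and brain, had 1 of 15.1 in intron 2 of 11 (chr4:82086421-82086565). Prdm1, known as the repressor Blimp1, had 1 of 12.3 at 212 kb upstream, on a LINE repeat. Klf12 had the lowest member score, 9.58 (3.85 to 19.7) at 282 kb downstream, on the side of Klf5.

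Besides Zfp608, 7 Zfp genes had 10 peaks. Zfp703 and Zfp503, related zinc finger repressors of one small family, were among the 4 genes with a peak within 10 kb. The Zfp703 peak scored 23.3 (13.5 to 37.2) at 7.37 kb downstream (chr8:28095106-28095250). That of Zfp503 scored 15.1 (7.51 to 26.9) at 1.71 kb upstream (chr14:22810461-22810605). A stronger peak of 30.1, listed under Comtd1 at 55.7 kb, lay 85.0 kb downstream of the Zfp503 TSS (chr14:22723785-22723929). Zfp462 had 2 peaks of 16.4 each, one in intron 1 of 12 at 31.9 kb and one intergenic at 478 kb upstream.

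Zfp36l1 encodes an RNA-binding protein rather than a transcription factor. Of its 3 peaks, those of 13.7 and 10.9 lay 0.646 kb apart in intron 8 of 10 of Rad51b at 405 kb from the Zfp36l1 TSS. The third, of 13.7, lay between the same genes at 141 kb. Single intronic peaks scored 12.3 in Zfp1 (on an LTR repeat, 19.3 kb), 12.3 in Zfp704 (28.5 kb) and 10.9 in Zfp407 (175 kb).

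**Figure D2:**
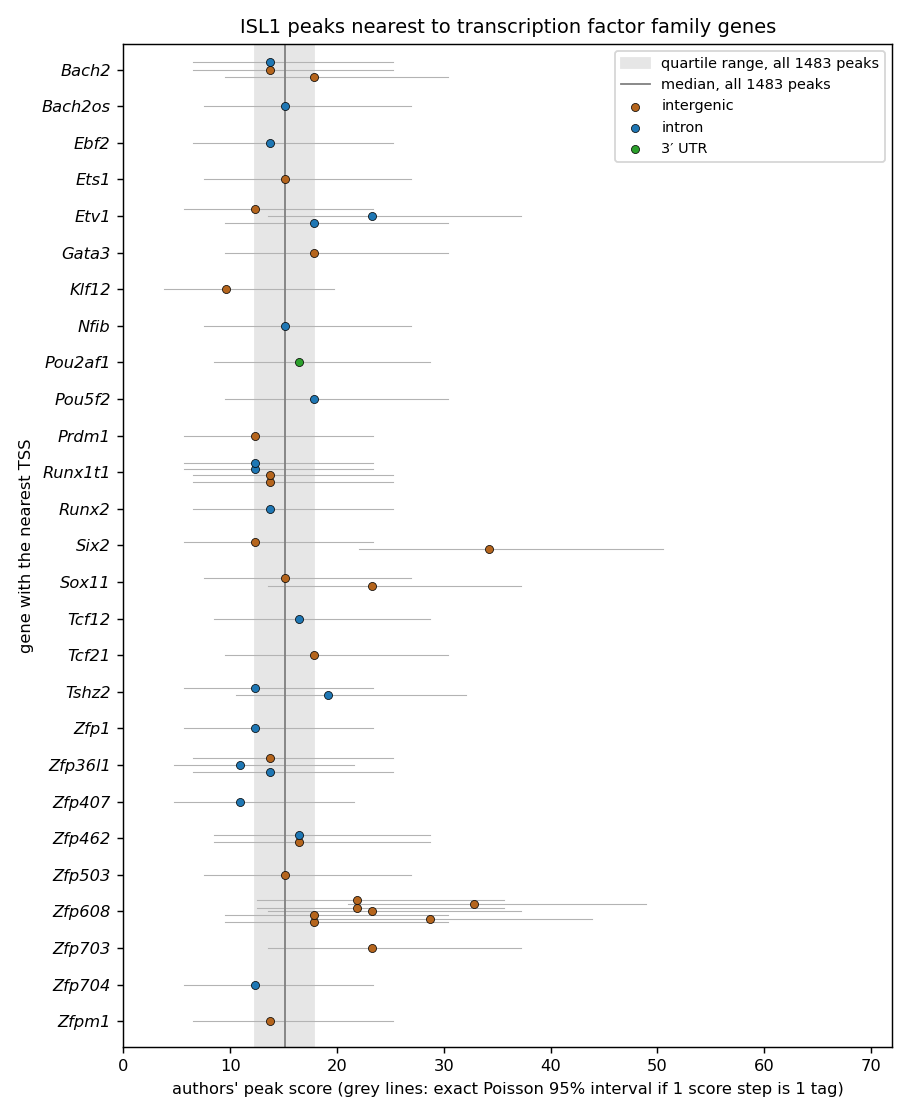
Authors' score of 46 of the 47 peaks (points, coloured by annotation) by nearest gene, with the exact Poisson 95% interval if 1 step is 1 tag (grey lines), beside the quartile range and median of all 1483 peaks. Six2 and Zfp608 hold the peaks above 28; most other points lie within the quartile range of 12.3 to 17.8.

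The median score of the members was 15.1 (quartiles 13.7 and 17.8), the same as over all peaks (12.3 and 17.8). At or above the 75th percentile lay 18 of 47 (38.3%, 24.5 to 53.6), against 29.4% of all peaks. At or above the 90th lay 7 (14.9%, 6.20 to 28.3), against 10.9%. Above 30 lay 2, of Six2 and Zfp608 (4.26%), against 3.51%. Of the 18 high peaks 7 belonged to Zfp608, and without that gene the first share was 27.5% (11 of 40).

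No member peak lay at a promoter. Within 100 kb of the TSS lay 24 of 47 (51.1%, 36.1 to 65.9), against 55.4% of all peaks, and within 30 kb 11 (23.4%), against 24.7%. Within 10 kb lay 4 (8.51%), against 11.4%. The median distance was 79.6 kb, against 83.4 kb. No member peak lay within 1 kb (0%, upper bound 7.55%), where 3.57% of all peaks lay, and none carried the promoter annotation (3.24% of all peaks). The peaks closest to a TSS were those of Zfp503 and Zfpm1, at 1.71 kb each. Beyond 150 kb lay 18 (38.3%, 24.5 to 53.6), against 33.2% of all peaks. Without the 7 Zfp608 peaks the shares within 100 kb (60.0%, 24 of 40) and beyond 150 kb (27.5%, 11 of 40) stood on the other side of those of all peaks.

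In the named families 19 of 30 peaks lay within 100 kb (63.3%, 43.9 to 80.1), and in the Zfp group 5 of 17 (29.4%, 10.3 to 56.0). The median distances were 62.6 and 268 kb. The intervals overlap, 7 of the 17 Zfp peaks belong to 1 gene, and the difference was not tested.

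**Figure D3:**
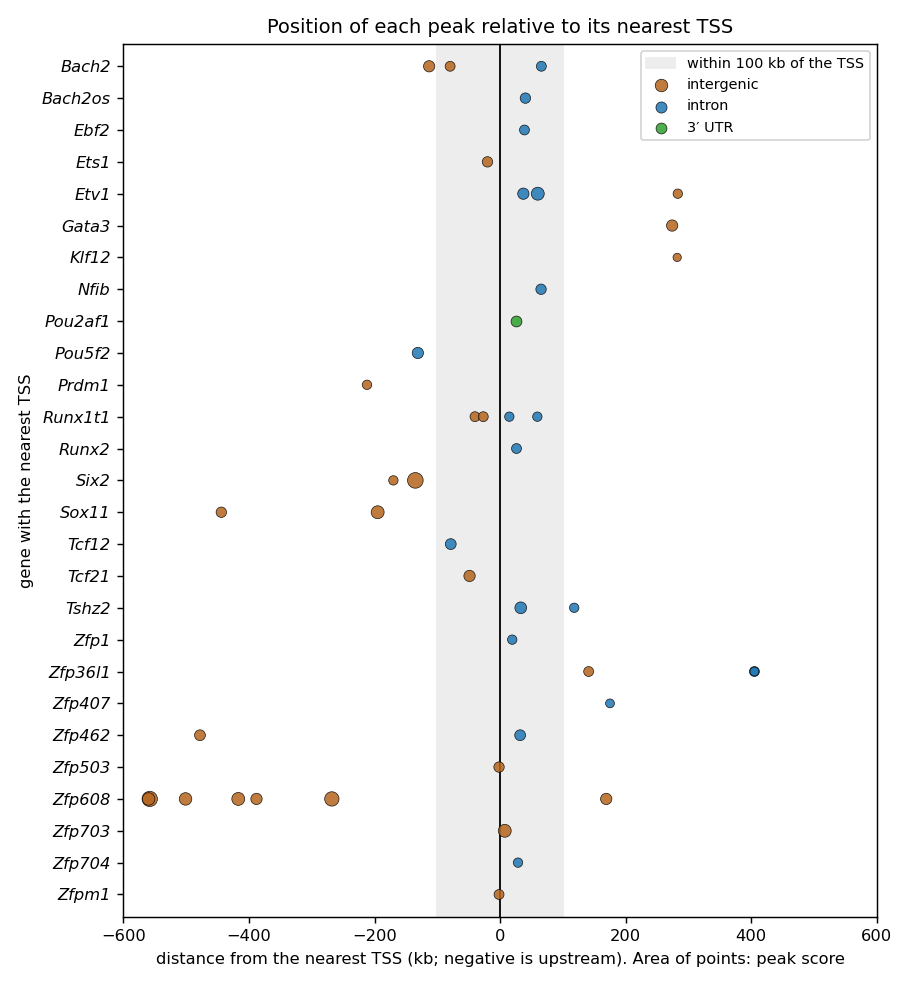
Signed distance in kb of 46 of the 47 peaks from its nearest TSS (horizontal axis) by gene (vertical axis); point area follows the score and colour the annotation, and the grey band marks 100 kb on either side. The 4 points of Runx1t1 lie in the band, and those of Zfp608 and Sox11 lie outside it.

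By annotation, 26 member peaks were intergenic (55.3%, 40.1 to 69.8; 53.8% of all peaks), 20 intronic (42.6%, 28.3 to 57.8; 40.8% of all peaks) and 1 in a 3′ UTR. Of the 20 intronic peaks, 6 lay in intron 1 (30.0%), against 24.6% of all intronic peaks. The host was the nearest gene for 17 of the 21 peaks in a gene body. It was another gene for the other 4 (Bach2os, Pou5f2 and 2 peaks of Zfp36l1), against 30.3% of all such peaks. Repeats held 3 member peaks (6.38%), against 7.82% of all peaks.

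Of all member peaks 25 lay downstream of the TSS (53.2%, 38.1 to 67.9), against 58.8% of all peaks. Of the 26 intergenic ones 20 lay upstream (76.9%, 56.4 to 91.0), against 53.3% of all intergenic peaks. The interval takes peaks of 1 gene as independent, and 6 of the 20 were those of Zfp608. Counted by gene, 10 of 16 genes had all their intergenic peaks upstream (62.5%, 35.4 to 84.8), against 53.9% of all genes with such peaks. The genes were Bach2, Ets1, Prdm1, Runx1t1, Six2, Sox11, Tcf21, Zfp462, Zfp503 and Zfpm1.

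Another peak lay within 50 kb of 19 member peaks (40.4%, 26.4 to 55.7), against 29.1% of all peaks. Within 10 kb the order of the shares was the other way, with 4 member peaks (8.51%, 2.37 to 20.4) against 13.4% of all peaks. The 19 were at Bach2 and Bach2os, Etv1, Runx1t1, Six2, Zfp36l1, Zfp608 and Zfp703. At Zfp703 the neighbour was a peak listed under Erlin2. Of the 28 genes, 9 had 2 peaks or more at any distance (32.1%, 15.9 to 52.4), against 27.4% of all genes. Chromosome 4 held 11 member peaks of its 109 peaks, chromosome 12 held 8 of 73, and chromosome 18 held 8 of 47, of which 7 were those of Zfp608.

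**Figure D4:**
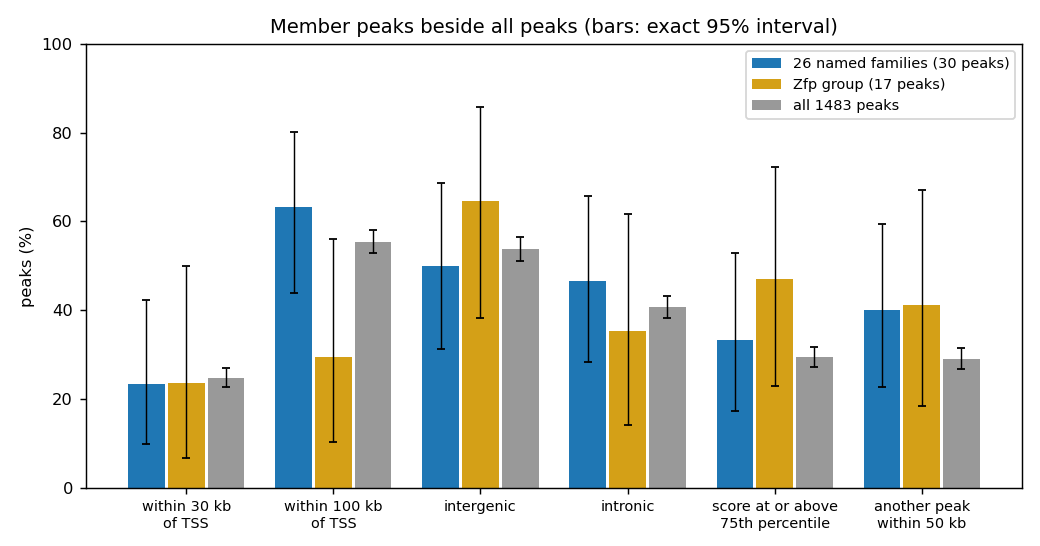
Share of peaks in percent (vertical axis) with each property (horizontal axis) for the 26 named families, the Zfp group and all 1483 peaks, with exact 95% intervals as error bars. The bars of the named families and the Zfp group at peaks within 100 kb of a TSS reach 63.3% and 29.4%, and their intervals overlap there.

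Seen from the genes, 19 of the 211 protein-coding genes of the 26 named families in the RefSeq table (GRCm38.p6) were nearest to a peak (9.0%, 5.51 to 13.7), against 3.79% of all 21030 coding genes. Within 100 kb it was 13 (6.16%, 3.32 to 10.3), against 2.58%. Of the 395 Zfp genes it was 8 (2.03%, 0.878 to 3.95) and within 100 kb 5 (1.27%, 0.412 to 2.93). Gene spacing was not corrected for, and the shares were not tested against each other.

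Of the 27 groups 11 had no listed peak, with 90 coding genes among them: Hox (39 genes), Nkx (14), Lhx (8), Maf (7), Tead (4), Sall (4), Id (4), Zfhx (3), Pitx (3), Hand (2) and Zeb (2). Group sizes count names, so the Maf group takes in Maf1, which shares only the start of the name. The Lhx genes encode LIM-homeodomain factors as Isl1 does. Of 36 genes of these families picked from those known in heart development or rhythm, 4 were nearest to a peak (11.1%, 3.11 to 26.1): Ets1, Sox11, Tcf21 and Zfpm1. The list held 32 others, among them Gata4, Nkx2-5, Hand2, Tead1 and Zfhx3. Of 31 genes picked from those known in neurons or islets, where ISL1 also acts, Ebf2 and Tshz2 were nearest to a peak (6.45%, 0.791 to 21.4). Both lists are partial: Etv1 was not on the heart list, nor Sox11, Gata3 and Nfib on the neural one. The shares thus depend on which genes were picked. Both intervals hold the share of all coding genes.

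**Figure D5:**
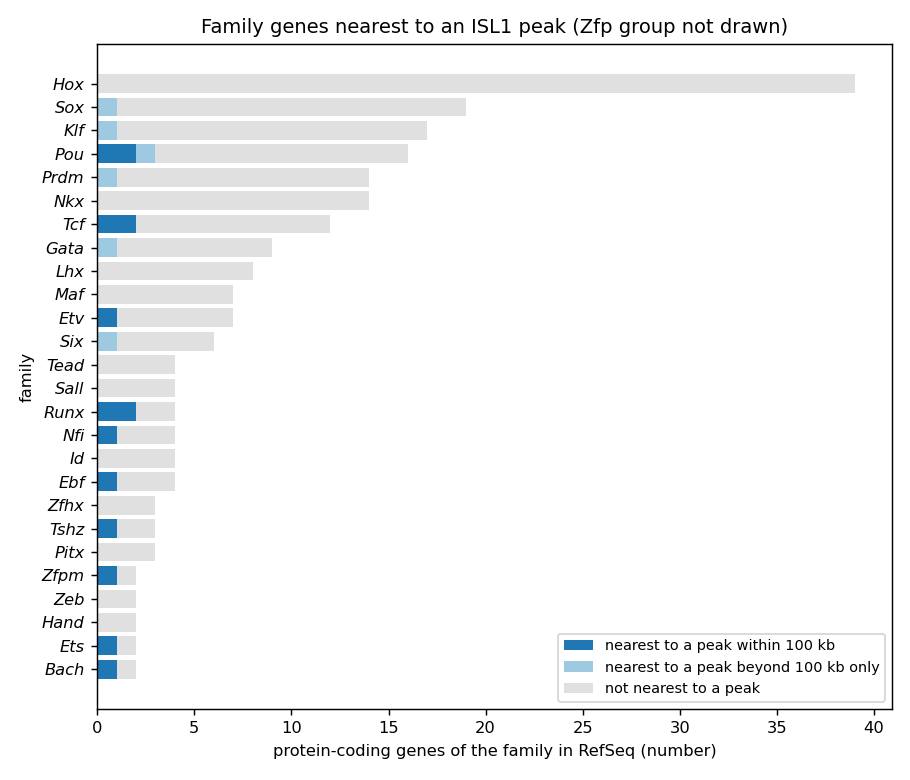
Number of protein-coding genes in each of the 26 named families (bar length), split into those nearest to a peak within 100 kb (dark blue), those nearest to a peak beyond 100 kb only (light blue) and the rest (grey). Pou had 3 genes nearest to a peak and Tcf and Runx 2 each, counting Pou2af1 and Runx1t1, which came in by name. None of the 39 Hox genes or of the 10 other families without colour was nearest to a peak.

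Some genes of these groups, with or without a listed peak, also flanked peaks in gene order that were listed under another gene. The groups hold 606 of the 21030 coding genes, and gene spacing was not corrected for. The other protein-coding gene flanking an intergenic peak could be found for 712 of the 798 intergenic peaks. It was a gene of these groups for 37 peaks (5.20%), 35 of them not members. Their distance from that gene was not measured unless it is given here. For a peak listed under a noncoding gene, only the coding gene on the peak's side of that gene was taken. The counts of flanked peaks can thus be too low. Hand2, a helix-loop-helix factor of the right ventricle and outflow tract, flanked 3 peaks listed under Fbxo8, of 30.1, 10.9 and 17.8, at chr8:59085467 to chr8:59126844. Nfib, which also had its own listed peak, flanked 4 peaks listed under Mpdz, of 16.4, 23.3, 19.2 and 19.2, over 208 kb of chromosome 4. These peaks lay 94.2 to 302 kb from the Mpdz TSS, and the Nfib TSS was no closer.

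By this count 1 peak each flanked Sox9 (12.3, listed under Kcnj2), Klf4 (13.7), Zeb2 (13.7), Nkx2-1 (12.3) and Pou3f3 (30.1). Those of Zeb2 and Pou3f3 were listed under noncoding genes, so further peaks between the same coding genes may be missed. Pou3f2 flanked 2 of 13.7 and 15.1, and Klf6 2 of 17.8 and 10.9. In the Zfp group, Zfp36l2 flanked 2 of 23.3 and 15.1, and Zfp770 flanked 3 listed under Dph6, of 12.3, 12.3 and 20.5. In gene bodies, 1 peak of 10.9 lay in intron 3 of Sall1, listed under Mir8110 (chr8:91553449-91553593), and 1 of 17.8 in intron 6 of Zfp385b. Of the heart list, Hand2, Sox9, Klf4 and Zeb2 thus flanked a peak in gene order without being nearest to it. The listed nearest TSS was 55.6 to 96.8 kb from the Hand2 peaks and 149 kb from that of Sox9. It was 519 kb from the Klf4 peak and 182 kb from that of Zeb2. The TSSs of the flanking genes themselves were at least as far away. The share of all coding genes that flank a peak in this way was not counted.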

How the data were processed

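Node cells were fixed first in 2 mM disuccinimidyl glutarate (30 min) and then in 1% formaldehyde (10 min), per the labels' protocols. Their chromatin, in fragments of 100 to 400 bp, was incubated with 5 µg of ISL1 antibody. Bowtie, HOMER and the build mm9 are named, per the submitters' processing notes. Versions and caller settings: not given in the sources used here. Peaks were annotated with HOMER, per the file headers, from 1 library, not pooled. The peak score and the focus ratio (a fraction) are the authors' deposited values. So are distance to TSS, annotation and nearest gene.

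Members were matched by name, then by Entrez identifier to RefSeq (28 of 28). Hosts came from transcript accessions. Strand came from the RefSeq promoter table (18 genes) or from 2 peaks of 1 transcript (3 more), and gene order from GRCm38.p6, of which no coordinates are used. Zfp985, listed as Gm13154, was left out of the gene counts. No member peak fell in the promoter table's windows (250 bases before to 50 after a start), so the planned motif search was not run.

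The rule for names took the genes of the 12 highest peaks, those with 2 peaks or more, those within 30 kb and the top of each family; 27 of the 28 are named. Values of 1 member gene and of 1 flanking gene are not reported here, though the counts include them. The flanking genes that are named were chosen after their values were seen. Members and lists were chosen with earlier results of these data known. With 1 library no test was made; shares have exact Clopper-Pearson intervals at the 95% level. Functions were tested on simulated data. Tools were Python 3.11.15, numpy 2.4.6, pandas 2.3.3 and scipy 1.17.1.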

Additional observations from a re-analysis of the deposited data

How the results depend on the processing

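Of 70 recomputed values 53 stayed within the interval of the reported one, and 17 moved out of it. This tally does not measure stability. A narrower or wider distance limit can shift a share only 1 way, and merging peaks within 1 kb left 46 of 47 members. Keeping only scores from the 75th percentile up put 72.2% of member peaks in intergenic DNA and 33.3% within 100 kb. Over all peaks filtered in this way the shares were 54.1% and 53.4%. Of the 18 members kept, 7 were those of Zfp608, all intergenic and beyond 100 kb. The median score of 21.2 was set by the filter itself. This filter left 1.82% of the groups' coding genes with a peak and 0.825% within 100 kb, since fewer peaks remain. At or above the median score 2.81% of genes had a peak. The shares of all coding genes under these score filters were not computed. These values thus cannot be set beside the unfiltered 3.79% and 2.58%. With strict families, which drop Zfp and genes such as Runx1t1 that share only a name, members were 1.62% of peaks, but 8.42% of genes had a peak and 5.45% within 100 kb. Limits of 10, 30 and 200 kb gave 8.51%, 23.4% and 70.2% of member peaks, and limits of 10 and 30 kb gave 0.660% and 1.65% of genes. The share of all coding genes was not computed at these limits either. Member peaks with a neighbour were 8.51% within 10 kb and 19.1% within 25 kb. Without chromosomes 4 and 18, a setting chosen after seeing the data, members were 2.11% of peaks. Distances from a host gene's own TSS are not in the list, so values by distance and side were not run for host genes. No paired analysis was possible because the series had 1 library of each kind. Single scores are imprecise: if 1 step stands for 1 tag, all but 3 member scores had an interval that reached the list's median. Those 3 were 6.38% of member peaks, against 7.28% of all peaks.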
